A study of Mus musculus with 24 samples.

Results

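The Notch genes described are the receptors *Notch1*, *Notch2* and *Notch3*, the nuclear partners *Rbpj* and *Maml1*, and the target genes *Hes1*, *Dtx1*, *Nrarp*, *Hey1* and *Heyl*. They were taken by gene symbol, and are 10 of the 55487 genes listed in each of the 2 deposited tables. Their mRNA was measured by QuantSeq, a method that counts transcripts by reads near their poly(A) tail, in mouse Cas9-LP cells. These are lymphoid progenitor (LP) lines grown from fetal liver of mice that were Ebf1-deficient and carried Cas9 knocked into Rosa26, so every group, controls included, is labelled as deficient in Ebf1, a factor needed for B lineage development, and as carrying Cas9. All cells were grown on mitomycin C-treated OP9 stroma with SCF, Flt3L and IL-7, carried an sgRNA-hNGFR retrovirus, and were sorted as hNGFR+CD45+ cells 5 days after transduction. In the first experiment LPs on OP9 and Phase 1 cells, moved to OP9-DLL4 for 2 days of Notch stimulation, carried sgControl (against luciferase) or sgCbfb. In the second, LPs on OP9 carried sgControl, sgCbfb, sgCTCF or sgMed12. The 8 groups hold 3 libraries each, which the study's methods call biologically independent. Whether each came from a separate culture or line is not given in the sources used here, so P values measure the spread between these libraries.

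Notch receptors are cleaved after a ligand such as DLL4 binds, and the freed intracellular domain enters the nucleus, where it joins the DNA-binding protein RBPJ and a Mastermind coactivator such as MAML1 to switch on target genes. In lymphoid progenitors the signal through NOTCH1 starts the T cell program and blocks the B cell fate. *Hes1*, *Hey1* and *Heyl* encode bHLH repressors, *Dtx1* encodes the ubiquitin ligase Deltex, and *Nrarp* encodes a small ankyrin repeat protein that binds the nuclear Notch complex and damps it. CBFβ, the product of *Cbfb*, is the partner of the RUNX factors, CTCF organises chromatin loops, and MED12 belongs to the kinase module of Mediator.

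Values are CPM, the reads of a gene per 1000000 reads on genes. The libraries of the first experiment hold 1363263 to 1743319 reads and those of the second 3354483 to 4326782, so 3 reads, the floor used here, are worth 1.72 to 2.20 and 0.693 to 0.894 CPM. Floors cover counting error only. Differences were tested with limma on log2(CPM + 1) across all genes of an experiment, with Benjamini-Hochberg adjustment, and these differences understate the change of low genes. All of these thresholds had to be met for a call: adjusted P below 0.05, group means that differ by more than 1 on the log2 scale, and at least one of these means above 10 CPM. With 3 libraries a group, no two-sided exact permutation test can reach a P below 0.1. Phase 1 sgControl replicate 3 and sgMed12 replicate 2 stood apart from their groups, with a chi-square over reads per degree of freedom of 8.75 to 10.7 and 9.43 to 17.6 in the pairs they formed, against 2.46 to 5.01 in the other replicate pairs. Of the targeted genes, *Cbfb* was at 75.8 to 92.7 CPM in sgControl and 35.7 to 45.8 CPM in sgCbfb LPs of the first experiment, at 44.7 to 81.3 and 44.1 to 63.5 CPM in Phase 1 cells, where the groups overlapped, and at 109 to 124 and 41.6 to 55.4 CPM in the second experiment. *Ctcf* was at 272 to 330 CPM with sgCTCF against 356 to 413 CPM with sgControl (limma adjusted P = 0.021, not called). *Med12*, at 3.20 to 9.61 CPM with sgMed12 and 4.38 to 6.59 CPM with sgControl, gave no check of its sgRNA by mRNA level, and an edited gene need not lose its mRNA. The study examined loss of the proteins of these genes by immunoblot, which is separate from the values used here.

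As markers of the cells, 8 lymphoid progenitor genes summed to 1203 to 2672 CPM in every library, a sum over members that differed in opposite directions with sgCbfb. In LPs of experiment 1, *Ly6d* was at a mean of 1.37 CPM with sgCbfb against 144 CPM with sgControl, *Dntt* at 251 against 39.4 CPM and *Cd34* at 526 against 259.6 CPM. Of 12 stromal genes, 5 to 7 were at the floor in the groups of experiment 2 and 10 or 11 in those of experiment 1, with sums of 2.14 to 59.3 CPM. The 6 B lineage genes summed to 146 to 410.2 CPM, most of it from *Ebf1*, whose mRNA was at 143 to 403 CPM in the 24 libraries. By mRNA level the Ebf1-deficient label was thus not borne out, though 3′ reads that lie outside a disrupted part of a gene give no check of it, and which part these came from was not tested. *Pax5* was at group means of 0.932 to 21.98 CPM, the highest with sgCTCF against 8.58 CPM with sgControl, and *Cd79a* and *Ms4a1* were at the floor in every group. For 7 of the members (*Notch1*, *Notch2*, *Notch3*, *Rbpj*, *Maml1*, *Dtx1* and *Nrarp*) a RefSeq promoter, 250 bases before to 50 bases after the annotated start on GRCm38.p6, was at hand.

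*Nrarp* and *Dtx1* are shown because both were low in LPs and high after Notch stimulation, yet their means differed in opposite directions between sgCbfb and sgControl Phase 1 cells. Neither of these differences was called in the limma fit of all groups. Each promoter is read 5′ to 3′ on the gene's strand, and capitals mark 3 motifs searched on either strand. The E box, the kind of site that bHLH proteins bind, was searched as CACGTG. The TATA element, found upstream of many start sites, was searched as TATAA. The class C site, a kind bound by HES proteins, was searched as CACGCG. The *Nrarp* promoter lies at chr2:25180508-25180807 on the plus strand and the *Dtx1* promoter at chr5:120711620-120711919 on the minus strand.
Nrarp: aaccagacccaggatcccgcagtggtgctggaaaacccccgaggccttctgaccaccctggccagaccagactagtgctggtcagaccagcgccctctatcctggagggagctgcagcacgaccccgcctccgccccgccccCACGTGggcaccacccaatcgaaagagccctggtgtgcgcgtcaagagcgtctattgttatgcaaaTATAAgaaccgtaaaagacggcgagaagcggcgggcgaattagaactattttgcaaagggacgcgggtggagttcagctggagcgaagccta
Dtx1: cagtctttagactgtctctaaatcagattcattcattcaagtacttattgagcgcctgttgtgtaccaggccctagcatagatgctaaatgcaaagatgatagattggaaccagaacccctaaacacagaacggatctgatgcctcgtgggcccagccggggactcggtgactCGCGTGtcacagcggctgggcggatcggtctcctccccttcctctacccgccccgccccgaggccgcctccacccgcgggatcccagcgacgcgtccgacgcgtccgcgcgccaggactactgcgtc
In *Nrarp* the E box, which reads the same on both strands, begins 108 bases before the start and TATAA begins 42 bases before it. In *Dtx1* one class C site lies on the opposite strand, 77 bases before the start. Of the 32851 promoters searched, 7.15% hold an E box with these letters on either strand, 9.27% a class C site and 24.87% the TATA element. The RBPJ core TGGGAA (in 25.56% of promoters) was in neither window. The RUNX letters TGTGGT, present in 16.76% of promoters, were in neither window, and the same held for the RUNX variant TGCGGT, present in 6.45%. Among the 7 members with a promoter at hand, it was that of *Rbpj* itself that held TGGGAA, at 149 bases before its first start and, on the other strand, at 65 bases before it. *Hes1*, *Hey1* and *Heyl* had no promoter at hand and were not searched.

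Notch stimulation raised 5 of the 10 members in sgControl cells, namely the receptors *Notch1* and *Notch3* and the targets *Hes1*, *Dtx1* and *Nrarp*. Of all 13239 genes tested in this comparison, 3.39% were called, and 8 of the members were among those tested. The median difference of these 8 was 2.01 on the log2(CPM + 1) scale, against -0.07 for all genes tested. *Notch2*, *Rbpj* and *Maml1* were not called. *Hey1* and *Heyl* had at most 1 read in any library of the 24 and entered no test, at a depth where 3 reads are worth up to 2.20 CPM.

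**Figure D1:**
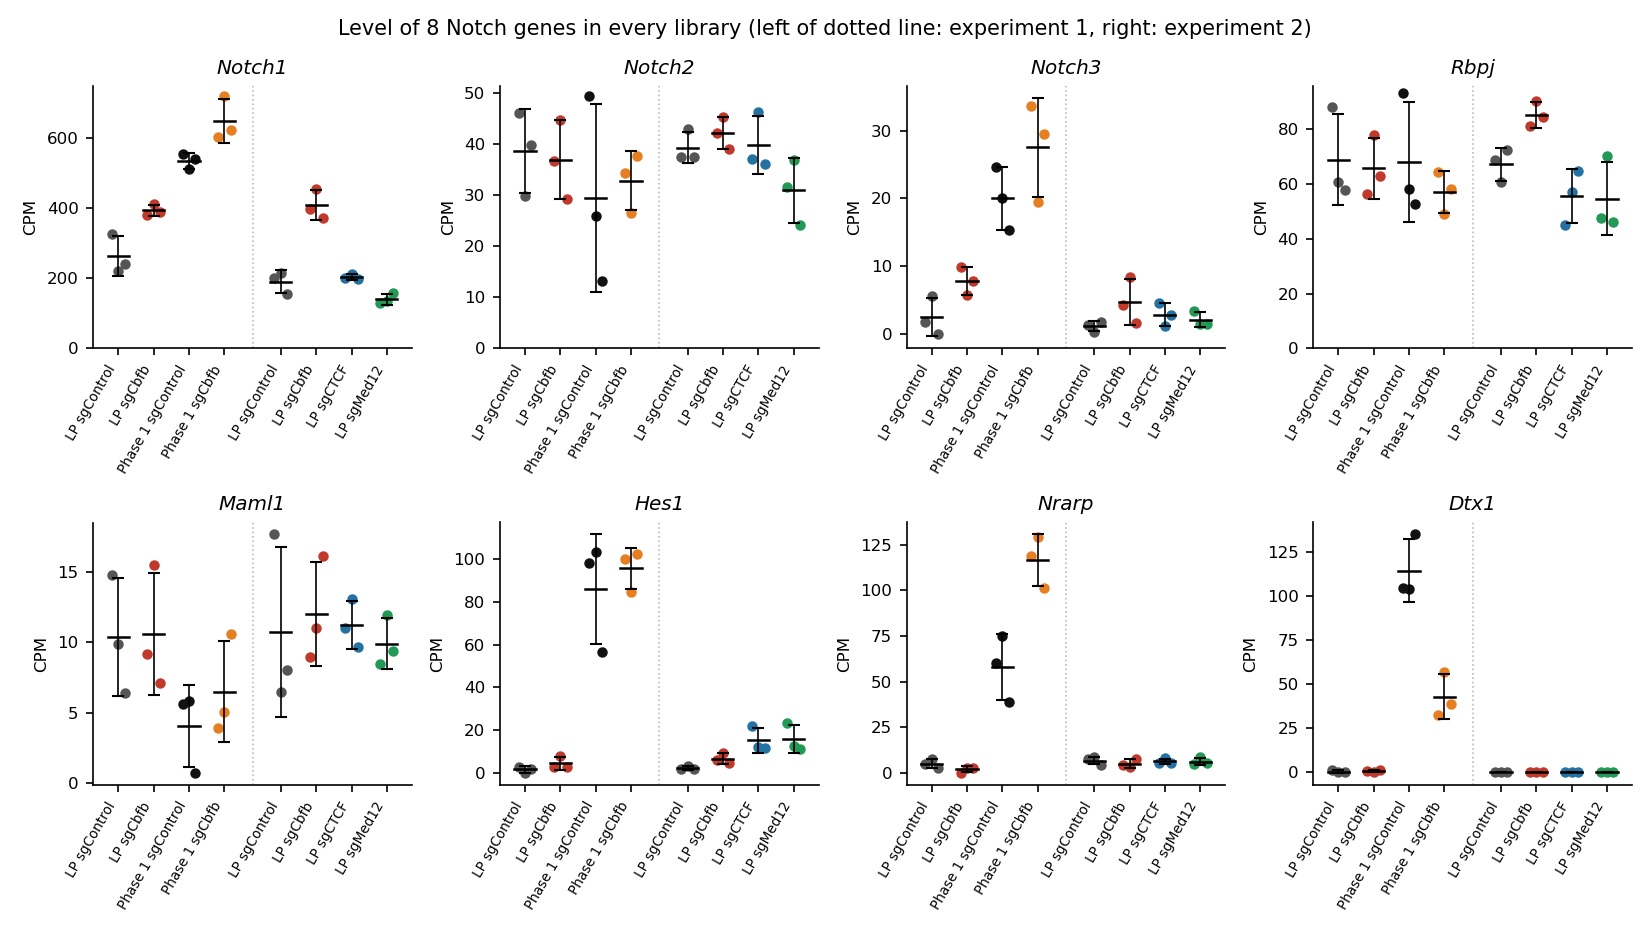
Level in CPM (linear axes, 1 panel a gene) of the 8 members with reads beyond the floor, in every library of the 8 groups. Points are libraries, horizontal lines are means and bars are SD (n = 3). *Hes1*, *Nrarp* and *Dtx1* are high only in the 6 Phase 1 libraries, at 32.4 CPM or more, while *Notch1* is present in every library, from 128 to 718 CPM.

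*Notch1* (ENSMUSG00000026923, chromosome 2, 26457903 to 26516663, minus strand, GRCm38) was 1 of the 2 receptors called. It stood at 327, 221 and 241 CPM in the sgControl LPs and at 553, 510 and 538 CPM in the sgControl Phase 1 cells. The groups did not overlap, with means of 263 ± 56.3 and 534 ± 22.2 CPM (SD, n = 3). The rise was 2.03-fold, a limma difference of 1.04 (95% confidence interval 0.77 to 1.31, adjusted P = 8.6e-06), so it lay close to the fold threshold. Without sgControl LP replicate 2 or 3, or without Phase 1 sgControl replicate 1, the ratio of means fell under the threshold, and the limma differences with 1 library left out were 0.92 to 1.21.

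*Notch3* (chromosome 17, 32120820 to 32166852, minus strand) was low in LPs, with 3, 9 and 0 reads (1.77, 5.57 and 0 CPM). In Phase 1 sgControl cells it was at 24.7, 19.999 and 15.4 CPM, above each of the LP libraries. The limma difference was 2.98 (95% confidence interval 1.87 to 4.09, adjusted P = 0.00083). *Notch2* (chromosome 3, 98013527 to 98150361, plus strand) was at 29.7 to 46.0 CPM in LPs and 13.2 to 49.4 CPM in Phase 1 cells, and these ranges overlapped. Its lowest value, 13.2 CPM, was that of Phase 1 sgControl replicate 3.

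Neither nuclear partner was called. *Rbpj* (chromosome 5, 53466152 to 53657362, plus strand) was at 57.8 to 87.9 CPM in LPs and 52.8 to 93.2 CPM in Phase 1 cells, a limma difference of -0.04 (95% confidence interval -0.51 to 0.44, adjusted P = 0.96). *Maml1* (chromosome 11, 50255634 to 50292311, minus strand) was at 14.8, 9.91 and 6.42 CPM in LPs and at 5.65, 5.81 and 0.733 CPM in Phase 1 cells. These groups did not overlap, but the values rest on 1 to 25 reads a library and the difference of -1.34 was not called (limma adjusted P = 0.18).

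Among the targets, *Hes1* (chromosome 16, 30064384 to 30067796, plus strand) went from 2.95, 0 and 1.93 CPM in sgControl LPs to 98.1, 103 and 56.5 CPM in Phase 1 cells. The lowest Phase 1 library, replicate 3, was still far above every LP library. The LP mean of 1.63 CPM rests on 5, 0 and 3 reads and is under the level of 3 reads a library, so the rise was at least 46.4-fold against that floor, with a limma difference of 5.22 (95% confidence interval 4.27 to 6.17, adjusted P = 5.6e-08). *Dtx1* (chromosome 5, 120680202 to 120711927, minus strand) had 2, 0 and 0 reads in the LPs, which put the group at the floor, and 104, 104 and 135 CPM in Phase 1 cells. It was at least 61.8-fold higher after stimulation, counted against 3 reads a library (limma adjusted P = 3.5e-09).

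*Nrarp* (chromosome 2, 25180758 to 25183339, plus strand) was at 4.72, 7.43 and 2.57 CPM in sgControl LPs and at 59.996, 74.8 and 38.9 CPM in Phase 1 cells. The rise was 11.8-fold, with a limma difference of 3.36 (95% confidence interval 2.39 to 4.32, adjusted P = 3.6e-05). An antisense gene, Gm38287, overlaps 79.4% of its exon bases, and whether reads were counted by strand is not given in the sources used here, so reads of the pair cannot be told apart. Replicate 3 of Phase 1 sgControl, low for *Hes1* and *Nrarp*, was the highest of the 3 for *Dtx1*. Without this library the 5 rises were called, with limma differences of 5.49 for *Hes1*, 6.34 for *Dtx1*, 3.61 for *Nrarp*, 3.14 for *Notch3* and 1.03 for *Notch1*.

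Cells that carried sgCbfb also responded to Notch stimulation, with *Hes1*, *Dtx1* and *Nrarp* called higher, 3 of the 8 members tested against 1.19% of all genes tested. *Hes1* was at 2.82, 8.03 and 2.85 CPM in sgCbfb LPs and at 99.8, 84.8 and 103 CPM in sgCbfb Phase 1 cells. That is a 21.0-fold rise (limma difference 4.24, adjusted P = 5.0e-06), to a level that overlapped the sgControl Phase 1 cells.

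*Dtx1* had 1, 0 and 2 reads in the sgCbfb LPs and was at 32.4, 57.2 and 38.9 CPM in the sgCbfb Phase 1 cells, at least 21.5-fold higher (limma adjusted P = 1.4e-06). *Nrarp* went from 0, 2.87 and 2.85 CPM to 119, 129 and 101 CPM, a limma difference of 5.57 (adjusted P = 6.9e-08). All 3 targets were thus separated from their LP values in every library of both sgRNAs.

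*Notch1* was at 381, 411 and 388 CPM in sgCbfb LPs and 601, 718 and 621 CPM in sgCbfb Phase 1 cells, 1.64-fold higher by the means. Its limma difference of 0.71 had an adjusted P of 0.0020, but the fold was under the threshold and it was not called. *Notch3* was at 5.74 to 9.87 CPM in sgCbfb LPs and 19.5 to 33.7 CPM in sgCbfb Phase 1 cells, and was not called in this comparison (limma difference 1.69, adjusted P = 0.13). It was called by edgeR (quasi-likelihood) on recovered reads (adjusted P = 0.015), by limma with a pseudocount of 5 (0.022) and by limma with only the 2 groups compared in the fit (0.0020).

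**Figure D2:**
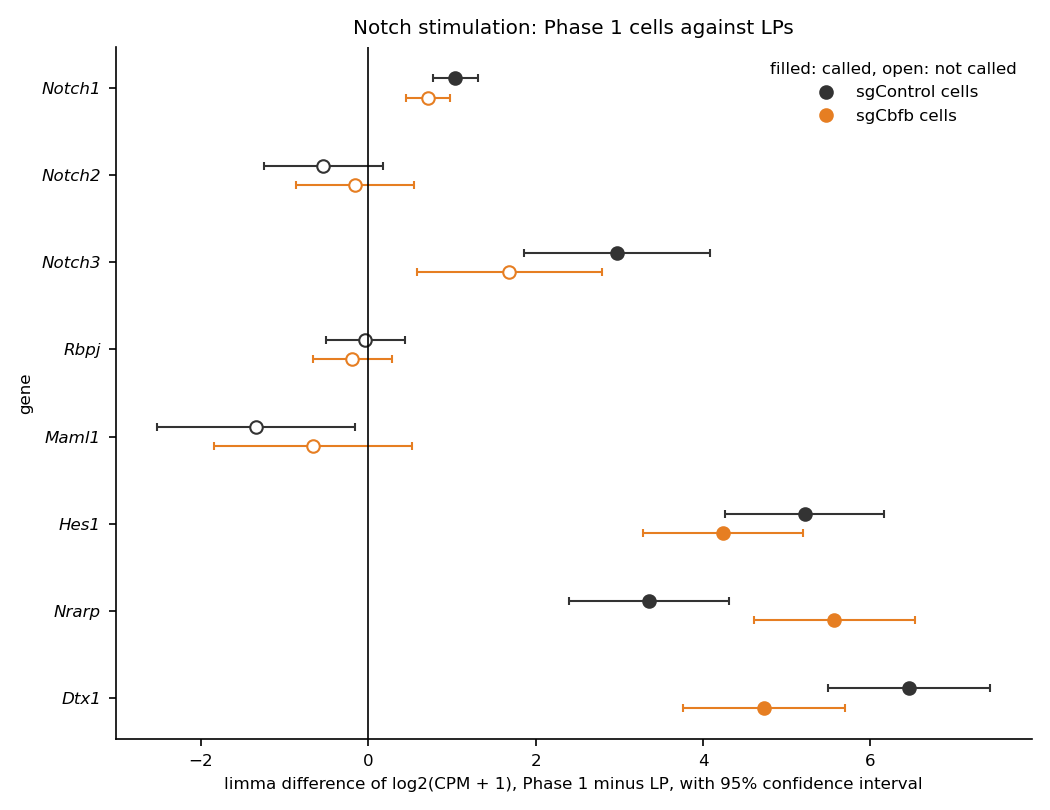
Differences between Phase 1 cells and LPs for 8 members, in sgControl and in sgCbfb cells, on the log2(CPM + 1) scale with 95% confidence intervals from limma. Filled points are called. *Hes1*, *Nrarp* and *Dtx1* are filled for both sgRNAs, *Notch1* and *Notch3* for sgControl, and *Notch2*, *Rbpj* and *Maml1* for neither.

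The direct comparison of sgCbfb with sgControl in Phase 1 cells called none of the 10 members with limma, while 3.52% of all genes tested were called. Of the 8 members tested, *Notch1*, *Dtx1* and *Nrarp* had an unadjusted P value under 0.05. *Dtx1* was lower with sgCbfb in all 3 libraries, with means of 42.8 ± 12.8 against 114 ± 17.8 CPM (SD, n = 3), 0.374-fold (limma difference -1.43, 95% confidence interval -2.40 to -0.46, adjusted P = 0.080). *Nrarp* was higher in all 3, with means of 116 ± 14.2 against 57.9 ± 18.1 CPM, 2.01-fold (limma difference 1.04, 95% confidence interval 0.077 to 1.9994, adjusted P = 0.24). In neither gene did the groups overlap.

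Whether these 2 differences were called depended on the fit. Both were by edgeR on the recovered reads (adjusted P = 0.00017 for *Dtx1* and 0.012 for *Nrarp*), with a pseudocount of 5 (limma adjusted P = 0.0033 and 0.044) and when only the 2 groups compared entered the limma fit (0.0032 and 0.023). Neither was called by limma with any of the 6 libraries left out. These fits still held the LP groups, where both genes had few reads. Without Phase 1 sgControl replicate 3 the differences were -1.30 and 0.78. The test of the sgCbfb effect in Phase 1 cells against that in LPs called no member, where 1.19% of all genes were called. Its largest difference among the members was that of *Nrarp*, at 2.21 (95% confidence interval 0.86 to 3.57, limma adjusted P = 0.13), followed by *Dtx1* at -1.73 (adjusted P = 0.31), and 2 members had an unadjusted P under 0.05.

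Within a library, the *Nrarp* reads were 0.288 to 0.721 times those of *Dtx1* in sgControl Phase 1 cells and 2.26 to 3.66 times in sgCbfb Phase 1 cells. The ratios did not overlap, and the mean log2 ratio was 2.50 higher with sgCbfb (two-sided exact permutation P = 0.1, the smallest that 3 libraries against 3 can give). The ratio of *Dtx1* to *Hes1* reads was 1.01 to 2.39 with sgControl and 0.325 to 0.674 with sgCbfb, and that of *Nrarp* to *Hes1* was 0.612 to 0.725 and 0.989 to 1.53 (exact permutation P = 0.1 for both). These ratios were chosen after the values were seen and are given as a description of unequal change between targets. For *Nrarp* to *Dtx1* the separation follows from that of each gene alone, so its P adds no support.

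**Figure D3:**
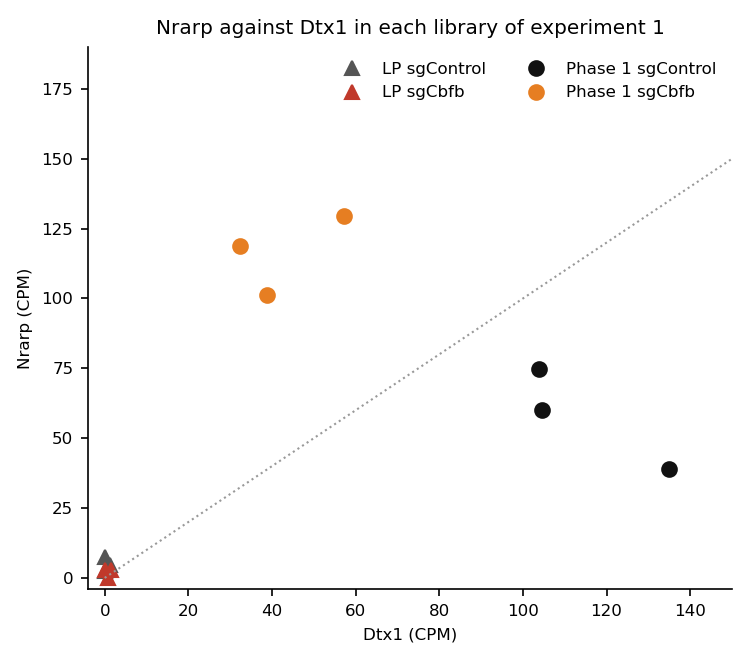
*Nrarp* against *Dtx1*, both in CPM on linear axes, for the 12 libraries of the first experiment, with a dotted line of equal values. The 6 LP libraries lie near the origin, the 3 Phase 1 sgControl libraries lie below the line and the 3 Phase 1 sgCbfb libraries above it.

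Among the marker lists, 8 early T genes summed to 1020 to 1304 CPM in sgControl Phase 1 cells and 198 to 225 CPM in sgCbfb Phase 1 cells, with *Cd3e*, *Cd3d* and *Ptcra* at the floor in the latter. The list includes *Tcf7*, *Gata3*, *Il2ra* and *Bcl11b*, at means of 148, 141, 371 and 438 CPM with sgControl. With sgCbfb these were at 12.7, 43.2, 115 and 37.5 CPM. The 8 myeloid genes summed to 50.8 to 61.6 and 217 to 236 CPM in the same groups, with *Elane*, *Csf3r* and *Lyz2* at the floor in both. The part of these shifts in the *Dtx1* and *Nrarp* values was not tested, and in bulk samples fewer cells of a type and less RNA per cell cannot be told apart.

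In LPs of the first experiment, none of the 10 members was called between sgCbfb and sgControl, against 1.69% of all genes tested, and 4 of the 8 tested had an unadjusted P under 0.05. edgeR also called none. *Notch1* was higher in every sgCbfb library, with means of 393 ± 15.5 and 263 ± 56.3 CPM (SD, n = 3), 1.496-fold (limma difference 0.60, 95% confidence interval 0.33 to 0.87, adjusted P = 0.0082), under the fold threshold. *Notch3* was at 9.87, 5.74 and 7.85 CPM with sgCbfb and 1.77, 5.57 and 0 CPM with sgControl, where the groups barely separated (limma adjusted P = 0.10). *Nrarp* and *Hes1* overlapped between the groups. The 8 myeloid genes summed to 218 to 233 CPM with sgCbfb and 84.8 to 109 CPM with sgControl in these LPs.

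The second experiment measured the same sgCbfb comparison, and there *Notch1* was called. It was at 396, 455 and 372 CPM with sgCbfb and 201, 214 and 153 CPM with sgControl, with means of 407 ± 42.7 and 190 ± 32.1 CPM (SD, n = 3). The groups were far apart, a 2.15-fold rise (limma difference 1.11, 95% confidence interval 0.86 to 1.36, adjusted P = 1.6e-07). It was the 1 member called of the 7 tested in this experiment, where 4.33% of all genes tested were. Without sgControl replicate 3, its lowest library, the ratio fell under the fold threshold, while the adjusted P remained below 0.05. The 8 myeloid genes summed to 302 to 415 CPM with sgCbfb and 74.0 to 94.5 CPM with sgControl, with *Ly6c2* at means of 270.4 and 11.2 CPM and *Elane* and *Csf3r* at the floor in both. Their part in the *Notch1* values of either experiment was not tested.

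*Hes1* was at 5.96, 9.38 and 4.53 CPM with sgCbfb and 1.85, 3.25 and 1.95 CPM with sgControl. These did not overlap (limma difference 1.16, adjusted P = 0.017), but no group mean was over 10 CPM, so it was not called. *Rbpj* was at 81.1, 90.4 and 84.4 CPM with sgCbfb and 68.6, 60.5 and 72.3 CPM with sgControl, a difference of 0.34 that was not called (limma adjusted P = 0.17). *Dtx1* had 1 read in 1 of the 12 LP libraries of the second experiment and 0 in the others, and was not tested there. Whether the *Notch1* difference with sgCbfb differed in size between the 2 experiments was not tested.

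With sgCTCF and with sgMed12, the member called was *Hes1*, 1 of the 7 tested in each comparison, against 2.43% and 1.03% of all genes tested. It was at 22.004, 11.973 and 11.6 CPM with sgCTCF and 23.2, 12.8 and 11.1 CPM with sgMed12. All 6 libraries were above the 3 sgControl libraries, whose highest value was 3.25 CPM, and replicate 1 was the highest library of each group. The limma difference was 2.24 with sgCTCF (95% confidence interval 1.57 to 2.91, adjusted P = 3.8e-05) and 2.27 with sgMed12 (95% confidence interval 1.60 to 2.95, adjusted P = 0.00021). The folds of means were 6.47 and 6.68, and both calls held with each library left out in turn. Without sgMed12 replicate 2 the sgMed12 difference was 2.38.

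These *Hes1* levels were far below those of Phase 1 cells of the first experiment, a separate table. The other targets were not called with either sgRNA: *Nrarp* was at 5.32 to 8.07 CPM with sgCTCF, 4.80 to 8.43 CPM with sgMed12 and 4.38 to 8.56 CPM with sgControl, so the ranges overlapped. Its limma differences were -0.06 (95% confidence interval -0.75 to 0.63) and -0.10 (95% confidence interval -0.79 to 0.59). *Dtx1*, *Hey1* and *Heyl* had 0 reads in all sgCTCF and sgMed12 libraries.

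Of the receptors, *Notch1* was at 199, 212 and 197 CPM with sgCTCF, within the sgControl range, and at 128, 134 and 157 CPM with sgMed12, where the highest library overlapped the lowest sgControl library at 153 CPM. The sgMed12 difference of -0.43 (95% confidence interval -0.68 to -0.18) had a limma adjusted P of 0.032 and was under the fold threshold. *Notch2* was at 31.6, 36.9 and 24.1 CPM with sgMed12 and 37.5, 42.8 and 37.5 CPM with sgControl (limma difference -0.35, adjusted P = 0.19). *Notch3* was at 1.11 to 4.56 CPM with sgCTCF and 1.42 to 3.39 CPM with sgMed12, against 0.295 to 1.70 CPM with sgControl. Its limma differences were 0.82 (95% confidence interval -0.11 to 1.75) and 0.56 (95% confidence interval -0.37 to 1.49). No group mean was over 10 CPM, so *Notch3* could not be called. *Maml1* ranged from 8.48 to 13.1 CPM in the libraries of both sgRNAs.

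The 12 stromal markers summed to 7.55 to 42.2 CPM with sgControl, 21.7 to 41.1 CPM with sgCTCF and 13.7 to 59.3 CPM with sgMed12, with *Dcn*, *Col3a1*, *Postn*, *Pdgfra* and *Lum* at the floor in all 3 groups. The myeloid genes summed to 74.0 to 94.5, 117 to 169.6 and 63.9 to 102 CPM in the same order, and the early T genes to 62.8 to 94.8, 119 to 139 and 90.7 to 99.6 CPM. *Elane* and *Csf3r* of the first list and *Cd3e* and *Ptcra* of the second were at the floor in all 3 groups. The part of these lists in the *Hes1* values was not tested. sgMed12 replicate 2, the library apart from its group, had 12.8 CPM of *Hes1*, between the other libraries.

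**Figure D4:**
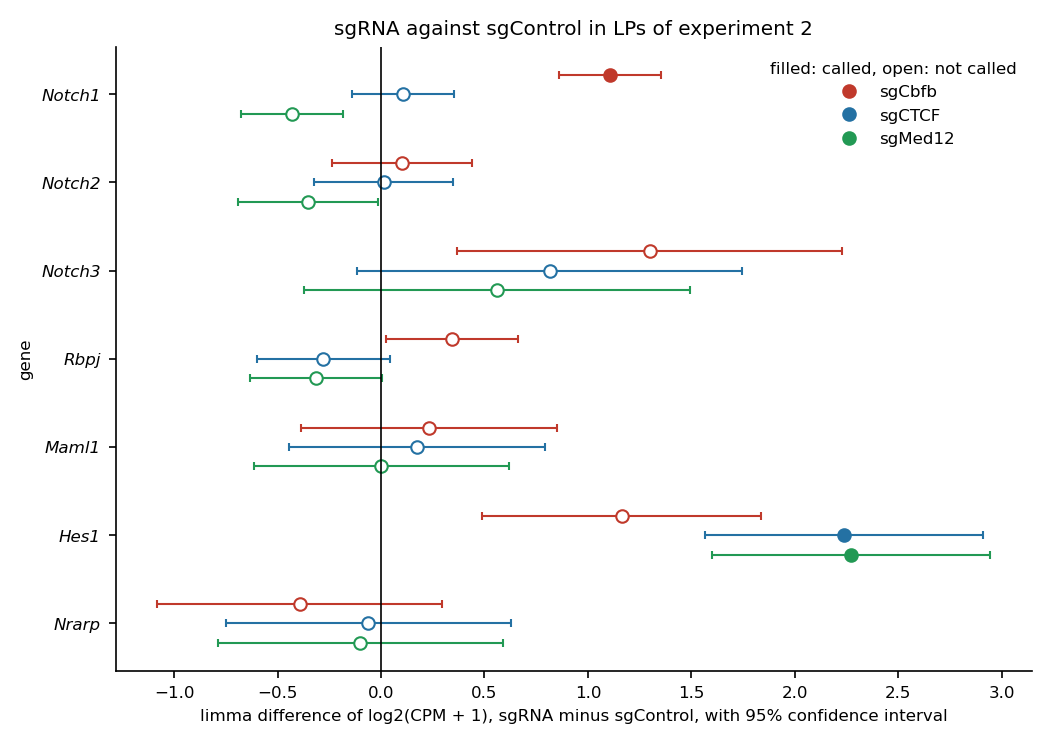
Differences of each sgRNA from sgControl in LPs of the second experiment for 7 members, on the log2(CPM + 1) scale with 95% confidence intervals from limma. Filled points are called: *Notch1* with sgCbfb, and *Hes1* with sgCTCF and sgMed12.

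Set against sgCbfb rather than sgControl, the sgCTCF LPs had 2 members called, where 6.87% of all genes were, and the sgMed12 LPs also had 2, where 4.48% were. *Notch1* was lower than with sgCbfb by a limma difference of -1.0002 with sgCTCF (adjusted P = 5.2e-07) and -1.54 with sgMed12 (adjusted P = 5.7e-10). *Hes1* was higher, by 1.08 (adjusted P = 0.018) and 1.11 (adjusted P = 0.019) in the limma fit. *Rbpj* was lower by 0.62 and 0.66 on the log2 scale, with limma adjusted P values of 0.0041 and 0.0036, below the fold threshold in both, and the 3 sgCbfb libraries were above all 6 others.

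Leaving out 1 library moved these calls. The *Hes1* calls were lost without sgCbfb replicate 1 or 3, and without replicate 1 of sgCTCF or sgMed12. The *Notch1* call against sgCTCF, at 0.497-fold, was lost without sgCbfb replicate 2 or sgCTCF replicate 1 or 3. Between sgMed12 and sgCTCF no member was called, against 4.01% of all genes, with 1 member past the adjusted P threshold: *Notch1* was lower with sgMed12 by 0.54 on the log2 scale (limma adjusted P = 0.0025). edgeR also called no member there. For *Hes1* the difference between sgMed12 and sgCTCF was 0.03 (95% confidence interval -0.64 to 0.71).

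In the first experiment the *Notch1* means thus ran from sgControl LPs through sgCbfb LPs and sgControl Phase 1 cells to sgCbfb Phase 1 cells, at 263, 393, 534 and 647 CPM. No neighbours in this order overlapped, and the last pair had a limma adjusted P of 0.27. *Hes1* and *Nrarp* had both LP groups low and both Phase 1 groups high, *Hes1* with overlap between the 2 Phase 1 groups and *Nrarp* without it. In the second experiment *Notch1* ran from sgMed12 at 140 CPM through sgControl at 190 and sgCTCF at 202 to sgCbfb at 407 CPM, where sgMed12 overlapped sgControl and sgControl overlapped sgCTCF.

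Over the 12 libraries of the first experiment, the genes whose log2(CPM + 1) was most like that of *Dtx1* were Khdc1a, Trbc1 (a T cell receptor constant region) and Prss2, with Pearson r of 0.983, 0.980 and 0.979. For *Nrarp* they included Rapgef2 and Prss2 (0.945 for both), for *Hes1* they were Rras2, 9930111J21Rik2 and S100a4 (0.966, 0.962 and 0.946), and for *Notch1* Gm2a, S100a4 and Hbb-bt (0.961, 0.947 and 0.946). The 12 libraries fall into 4 groups, so each r mostly reflects group means and is given as a description, the highest among 8998 genes. Khdc1a shared with *Dtx1* the lower level in sgCbfb Phase 1 cells, at a mean of 17.2 CPM against 99.8 CPM with sgControl.

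Beyond the members, 75 further genes of the pathway were followed, of which 65 were tested in the first experiment and 64 in the second. In sgControl cells Notch stimulation raised 5 of the 65 and lowered 2, so 10.8% were called, against 3.39% of all genes tested. Of 8 other Notch targets of T progenitors, 4 rose. *Il2ra*, which encodes CD25, went from 4.72, 2.48 and 0.642 CPM to 410, 355 and 348 CPM (limma adjusted P = 1.7e-12). *Tcf7* and *Gata3*, which encode T lineage factors, rose from 4.52 to 148 CPM and from 33.2 to 141 CPM by their means, and *Bcl11b*, a factor of T lineage commitment, from 76.3 to 438 CPM. *Aak1*, an endocytic kinase of Notch trafficking, rose from 57.8 to 182 CPM.

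The 2 genes that fell were *Dlk1*, a Notch-ligand relative, from 17.1 to 2.30 CPM, and *Maml3*, a Mastermind coactivator, from 136 to 49.3 CPM. None of 10 genes of receptor cleavage, 5 of receptor glycosylation and 16 corepressors tested was called. With 3.39% of all genes tested called, lists this short give no reading of these classes. By limma, 1 cleavage gene and 2 corepressors had an adjusted P below 0.05 without meeting the other thresholds. Ligands were scarcely detected: of 7 genes listed as ligands or as the fourth receptor, *Dlk1* and *Jag2* alone were tested, and *Jag2* was at 2.48 to 5.30 CPM by group means.

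In sgCbfb cells the same stimulation raised 3 of the 65 (4.62%), where 1.19% of all genes tested were called. *Il2ra* went from a mean of 20.2 to 115 CPM and *Bcl11b* from 13.6 to 37.5 CPM. The bHLH target *Hes5* went from 3.53, 1.72 and 4.28 CPM to 75.2, 40.2 and 50.1 CPM, while in sgControl cells its means were 1.03 and 4.39 CPM and it was not called. *Tcf7*, at means of 4.83 and 12.7 CPM, and *Gata3*, at 36.9 and 43.2 CPM, were not called in sgCbfb cells.

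**Figure D5:**
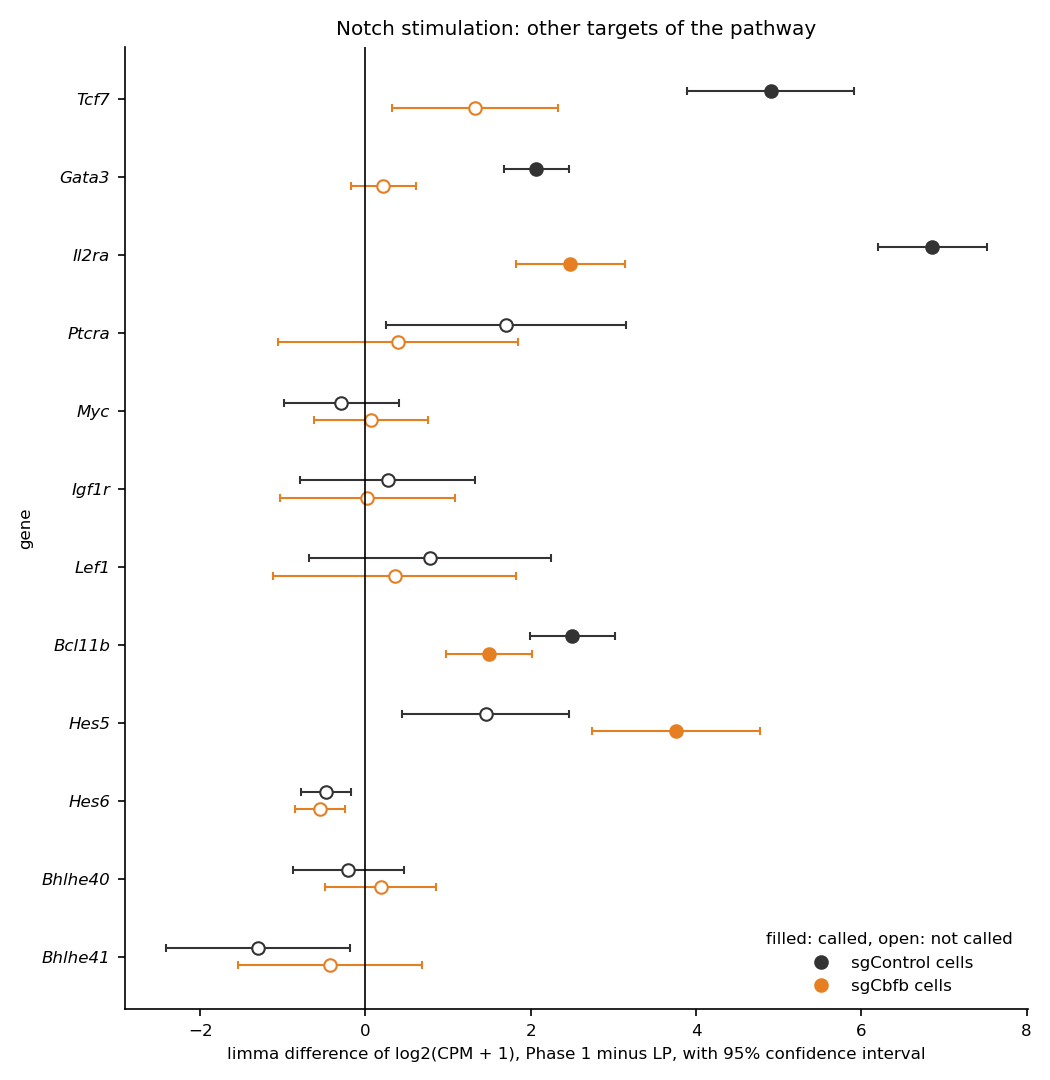
Differences between Phase 1 cells and LPs in sgControl and in sgCbfb cells for the 12 tested genes of the lists of other Notch targets of T progenitors and other bHLH repressor targets, on the log2(CPM + 1) scale with 95% confidence intervals from limma. *Tcf7*, *Gata3* and *Il2ra* lie higher in sgControl cells, and *Hes5* lies higher in sgCbfb cells.

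Within Phase 1 cells, 8 of the 65 (12.3%) differed between sgCbfb and sgControl, 5 lower and 3 higher, against 3.52% of all genes tested. *Bcl11b* (37.5 against 438 CPM by the means), *Tcf7* (12.7 against 148), *Gata3* (43.2 against 141), *Il2ra* (115 against 371) and *Aak1* (63.1 against 182) were lower with sgCbfb. *Hes5* was higher, at 55.2 against 4.39 CPM, as was *Dlk1* at 23.7 against 2.30 CPM. The sgCbfb effect differed between stages for *Il2ra*, *Tcf7*, *Gata3* and *Aak1*, 6.15% of the 65 against 1.19% of all genes tested. For *Hes5* the difference of 2.30 was not called (limma adjusted P = 0.14).

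In LPs of the first experiment sgCbfb raised *Il2ra* from a mean of 2.61 to 20.2 CPM and *Dlk1* from 17.1 to 51.9 CPM and lowered *Bcl11b* from 76.3 to 13.6 CPM. These were 3 of the 65 (4.62%), against 1.69% of all genes tested. The *Dlk1* call was lost with each of the 6 libraries left out, with adjusted P values up to 0.19 over all alternatives. In the second experiment the same 3 genes were called the same way, *Il2ra* from 0.845 to 22.5 CPM, *Dlk1* from 16.9 to 113 CPM and *Bcl11b* from 55.1 to 2.95 CPM. *Dtx3l*, a Deltex family ligase, was also higher, at 114 against 52.5 CPM, a call that was lost without sgCbfb replicate 1. The 4 calls were 6.25% of the 64 tested there, against 4.33% of all genes tested.

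With sgCTCF, 3 of the 64 (4.69%) were called, against 2.43% of all genes tested. *Tcf7* rose from 2.54 to 18.02 CPM and *Neurl3*, a ubiquitin ligase of the Neuralized family, from 4.30 to 12.5 CPM, and *Myc* fell from 36.8 to 15.7 CPM. The *Myc* call was lost without sgCTCF replicate 1. With sgMed12, *Dlk1* alone was called, from 16.9 to 5.52 CPM, 1 of the 64 (1.56%) against 1.03% of all genes tested.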

How the data were processed

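QuantSeq 3′ mRNA-seq values of 24 libraries in 8 groups of 3 were analysed, grouped by the sample labels. Per the labels and the methods, the authors trimmed reads with fastp and mapped them to mm10 with STAR; versions, counting tool and strand setting are not given in the sources used here. Each sgRNA group pools 3 vectors per gene, except sgControl.

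The deposited values are named TPM but are CPM: the authors scaled each library to 1000000 without division by length, and dividing by the value of 1 read gave whole reads for 100% of values within 0.001. The members and lists were chosen with earlier results of these data known. Of the 55487 genes, 55141 were found by identifier in GENCODE M21 (GRCm38), which gave positions and exon overlaps, and promoters came from RefSeq. The row without an identifier, worth 1 read, was left out.

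The test was limma 3.58.1 (trend) in R 4.3.3, with the 4 groups of an experiment in one fit and only genes that reach 1 CPM in 3 or more libraries. An interaction was called at the same adjusted P where any group had a mean above 10 CPM. The genes named are the members, and of the 75 pathway genes the called ones, up to 5 rises and 5 falls per comparison with a control or unstimulated group. Values of a few genes that this rule or the lists would name are not reported here. The alternatives were pseudocounts of 0.1 and 5, median-of-ratios scaling, no filter, the replicate number as a block, a fit of only the groups compared, edgeR 4.0.16 (quasi-likelihood, TMM) on the recovered reads, no fold threshold, and each library left out. The fitting code was tested on simulated data. Plots were drawn with matplotlib 3.10.9.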

Additional observations from a re-analysis of the deposited data

Results flagged for a closer look

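Among the 65 tested pathway genes that are not members, 4 (6.15%) had an sgCbfb difference that differed between Phase 1 cells and LPs. This was by the test of that difference itself, which called 1.19% of all genes tested. On the log2(CPM + 1) scale the effect in Phase 1 cells minus that in LPs was -4.38 for *Il2ra* (limma adjusted P = 1.0e-05), -3.58 for *Tcf7* (0.0070), -1.85 for *Gata3* (0.00050) and -1.71 for *Aak1* (0.0062). For *Il2ra* the direction turned, with a mean of 20.2 CPM with sgCbfb against 2.61 CPM with sgControl in LPs, and 115 against 371 CPM in Phase 1 cells, and no library of one group overlapped the other at either stage. For *Tcf7*, *Gata3* and *Aak1* the LP groups overlapped or lay close, at means of 4.83 against 4.52, 36.9 against 33.2 and 67.8 against 57.8 CPM. The *Tcf7* values in these LPs, at 1.24 to 7.05 CPM, rest on at most 10 reads a library. In LPs of the second experiment *Tcf7* was at 0 CPM in every sgCbfb library and at 1.85, 2.36 and 3.41 CPM with sgControl. No group mean there was over 10 CPM, so this difference could not be called. The early T and myeloid marker sums, which also moved with sgCbfb in Phase 1 cells, are given with the *Dtx1* and *Nrarp* values. The early T list holds *Il2ra*, *Tcf7* and *Gata3* themselves, so its sum is no separate measure for them. The part of cell type shifts in these differences was not tested.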

How the results depend on the processing

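Of 997 values of members under an alternative, 930 kept direction and side of the threshold, 16 lost a call, 15 gained one and 36 changed sign. For the comparisons of sgCbfb, sgCTCF and sgMed12 with each other, this tally holds only *Hes1* and members with a limma adjusted P below 0.05. None of the sign changes was in a called gene.
The number of members called with sgCbfb in Phase 1 cells was 0 in the limma fit of all groups and 2 with a pseudocount of 5, with edgeR and with only the compared groups in the fit; the cause was not tested. Without the fold threshold, 1 member was called with sgCbfb in LPs of experiment 1, 2 with sgMed12, and 1 between sgMed12 and sgCTCF. Against sgCbfb, sgCTCF had 1 member called without the filter or with median-of-ratios scaling, and sgMed12 had 1 without the filter. With 1 library left out, the number of members called was 0 to 1 for sgCbfb in LPs of experiment 2, 0 to 2 for sgCTCF against sgCbfb and 1 to 2 for sgMed12 against sgCbfb.
Signs of small differences (limma, log2) turned for *Rbpj* under Notch stimulation in sgControl cells, to 0.0315 with median-of-ratios scaling and 0.03003 with edgeR, and for *Maml1* with sgMed12, to -0.0177 with a pseudocount of 5 and -0.0776 with edgeR. With 1 library left out, *Rbpj* ran from -0.28 to 0.15 under Notch stimulation in sgControl cells, -0.18 to 0.14 with sgCbfb in LPs of experiment 1, -0.367 to 0.0369 with sgCbfb in Phase 1 cells and -0.345 to 0.0890 in the interaction. *Notch2* ran from -0.23 to 0.0929 with sgCbfb in those LPs, -0.14 to 0.78 in Phase 1 cells, -0.0759 to 0.838 in the interaction and -0.0981 to 0.0768 with sgCTCF. *Maml1* ran from -0.25 to 0.30 and -0.0339 to 0.624 with sgCbfb in LPs of the 2 experiments, -0.0918 to 0.566 with sgCTCF and -0.26 to 0.40 with sgMed12. *Nrarp* ran from -0.31 to 0.11 with sgCTCF and -0.346 to 0.0687 with sgMed12, *Notch1* from -0.0365 to 0.204 with sgCTCF, and *Hes1* from -0.0761 to 0.353 with sgCbfb in Phase 1 cells and -0.27 to 0.32 between sgMed12 and sgCTCF.
Over all genes, the 136 called with sgMed12 became 54 without the filter, 57 with only the compared groups in the fit, and 54 to 358 with 1 library left out, 358 being without sgMed12 replicate 2. The 158 under Notch stimulation in sgCbfb cells became 245 with only the compared groups. Without the fold threshold, counts of all genes rose to 726 and 267 for Notch stimulation in sgControl and sgCbfb cells and to 822 for sgMed12.
The replicate number as a block changed no count of members called: it remained 5 and 3 for Notch stimulation in sgControl and sgCbfb cells, and counts of all genes moved from 449 to 472 and from 158 to 165. Same-numbered libraries did not deviate together, with 1 of 18 correlations over 0.1 in experiment 1 and 2 of 18 in experiment 2, so the numbers were not read as pairs. Depth limits *Notch3*, *Maml1*, *Hey1* and *Heyl*, with few reads, and *Dtx1* and *Hes1* in LPs.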
